A study of Mus musculus with 6 samples.

Results

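Collagens, laminins and integrins are the structural proteins of the tissue matrix and the receptors by which cells hold on to it. Every probe was taken whose gene symbol names a collagen chain, a laminin alpha, beta or gamma chain, or an integrin alpha or beta subunit, which gave 73 genes on 79 probes, of 13409 genes and 19200 probes in all. They were 40 collagens, 10 laminins and 23 integrins, and 72 of them could be tested. The rule reads gene symbols and uses no measured value.

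Fibrillar collagens make the tensile fibres between fat cells, while collagen IV and the laminins form the basement membrane that wraps each adipocyte. A laminin is a trimer of 1 alpha, 1 beta and 1 gamma chain, and collagen chains also join into trimers within the cell before export. Integrins are pairs of 1 alpha and 1 beta subunit in the cell membrane that bind these proteins outside the cell and link them to actin within. In white fat, collagen VI is an abundant matrix component, and the matrix is reshaped when the depot expands or shrinks.

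The tissue was epididymal fat of male C57BL/6J mice, 12 weeks old, taken 3 hr after an injection of saline or of CL-316,243 at 1 mg per kg body weight. CL-316,243 is an agonist of the beta3-adrenergic receptor, which drives lipolysis in fat cells. The description writes its name as CL316,246 in 1 place. RNA of the 6 mice of each treatment was pooled, and each of 6 arrays with 2 colours compared the 2 pools, with the agonist pool in channel 1 on arrays 1, 2 and 3 and in channel 2 on arrays 4, 5 and 6. There is thus 1 pool per treatment, and the 6 arrays repeat the same comparison. All p-values below cover the spread between arrays and say nothing about the spread between mice.

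The deposited value of a probe is a log ratio of the 2 pools, taken here as log2. If it is a natural logarithm, every value is 1.44 times larger on the log2 scale. The labels do not say which pool is the numerator, so signs are given as deposited: a positive value means more RNA in the numerator pool, the same pool on all arrays as far as the values show. Dio2, the deiodinase that activates thyroid hormone in stimulated fat, was at 1.18 ± 0.19 (SE, n = 6 arrays). The mean of 6 arrays for Il6, a cytokine gene, was 1.77 ± 0.19 (SE). Each was positive on all 6 arrays.

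Columns of the table hold their missing spots only at their ends, so each column was first placed on the probe numbers. This kept between 64.5% (array 2) and 99.8% (arrays 5 and 6) of the probes, and 35 of the 79 member probes on array 2 against 66 to 79 on the others. Array 2 also had the widest spread, with a standard deviation of 0.79 against 0.42 to 0.57. After placement, arrays of the same orientation had rank correlations of 0.28 on average and arrays of opposite orientation 0.11. Since the placement looks for agreement between arrays, it can raise these correlations. For the same reason the placement can lower the p-values below and raise the counts of genes that pass or keep the same sign. When the members' own values were given no weight in the placement, every member value kept in both placements was identical, and the same 3 members passed the test below. All other genes, over which p-values are adjusted, kept their weight there. That placement did not keep 2 of the member values on array 2 and 2 on array 4. Fitted log2 ratios moved with it from -0.19 to -0.014 for Itga8, from 0.032 to -0.13 for Itgb1, from -0.75 to -0.60 for Lama5 and from 0.77 to 0.66 for Col6a2. Only 5 of the 73 members have several probes, and the name of a single probe may be mistaken. No intensities were used here, so the levels of tissue markers could not be checked, and fewer cells of a type cannot be told apart from less RNA per cell.

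Of the 72 tested members, 3 differed between the pools at an adjusted p under 0.05 in limma. The share was 4.17%, and over all 12888 genes tested 393 passed, or 3.05%. These members were Col7a1 and Col16a1, both negative, and Lamc1, positive. Both collagens stood at about 1.47-fold less RNA in the numerator pool, and Lamc1 at 1.59-fold more. At an unadjusted p under 0.05 there were 14 members (19.4%), against 18.4% of all genes. A log2 ratio of 0.5 or more in size was found for 7 members (9.72%), against 6.63% of all genes. The median size of a log2 ratio was 0.18 for the members and 0.14 over all genes. The shares of members past these thresholds were thus near those of the array as a whole.

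**Figure D1:**
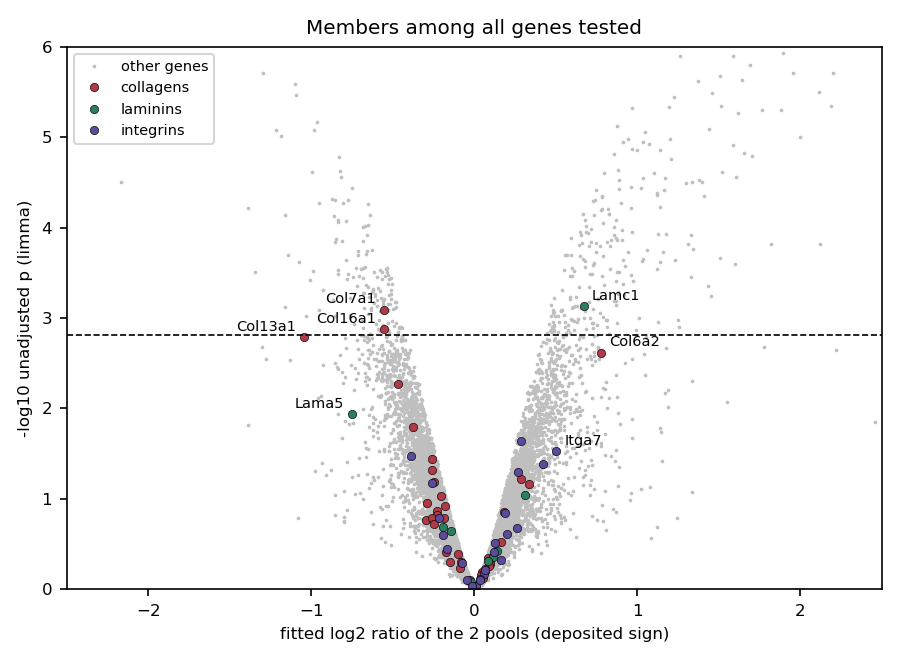
Fitted log2 ratio of the 2 pools (horizontal axis) against -log10 of the unadjusted p from limma (vertical axis) for the 12888 genes tested, with collagens, laminins and integrins as coloured points and the other genes in grey. The dashed line marks the p at which the adjusted p reaches 0.05; Col7a1, Col16a1 and Lamc1 lie above it, Col13a1 and Col6a2 just below, and 22 other genes lie outside the axes.

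To show the DNA in front of the genes these results turn on, the 250 bases before the annotated start are given for the 2 collagens that passed and for the collagens with the most negative and the most positive ratio, Col13a1 and Col6a2. Lamc1, which also passed, had no entry among the upstream sequences used. Those printed are RefSeq sequence of the mouse build GRCm38.p6, 5′ to 3′ on the strand of the gene. Capitals mark matches on either strand to 4 motifs. TGACG is the core of the cAMP response element, TGACGTCA, the site of a factor that acts in beta-adrenergic signalling. The others are the TATA box, searched as TATAAA, the motif known as the CCAAT box, and the GC box, searched as GGGCGG.
Col7a1, chr9:108953336-108953585, plus strand: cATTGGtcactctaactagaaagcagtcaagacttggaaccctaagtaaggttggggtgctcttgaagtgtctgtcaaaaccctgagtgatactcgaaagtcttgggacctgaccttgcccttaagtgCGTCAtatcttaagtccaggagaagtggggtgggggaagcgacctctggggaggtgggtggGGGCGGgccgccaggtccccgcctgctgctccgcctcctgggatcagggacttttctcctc
Col16a1, chr4:130047590-130047839, plus strand: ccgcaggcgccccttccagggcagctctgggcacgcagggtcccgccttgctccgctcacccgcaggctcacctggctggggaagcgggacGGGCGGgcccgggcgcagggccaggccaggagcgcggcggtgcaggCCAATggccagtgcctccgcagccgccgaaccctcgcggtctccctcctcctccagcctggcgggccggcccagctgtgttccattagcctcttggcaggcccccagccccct
Col13a1, chr10:61979109-61979358, minus strand: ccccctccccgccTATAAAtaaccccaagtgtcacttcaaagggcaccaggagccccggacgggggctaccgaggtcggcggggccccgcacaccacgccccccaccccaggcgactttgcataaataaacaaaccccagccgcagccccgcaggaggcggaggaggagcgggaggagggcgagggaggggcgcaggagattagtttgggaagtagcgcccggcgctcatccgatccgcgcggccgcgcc
Col6a2, chr10:76623405-76623654, minus strand, the downstream one of its 2 listed starts: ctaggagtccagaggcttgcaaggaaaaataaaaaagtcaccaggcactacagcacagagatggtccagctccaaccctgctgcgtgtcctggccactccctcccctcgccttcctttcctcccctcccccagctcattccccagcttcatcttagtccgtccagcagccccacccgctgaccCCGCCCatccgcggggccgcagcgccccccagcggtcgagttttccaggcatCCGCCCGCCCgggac

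The full element TGACGTCA was in 0 of 57 upstream sequences of members and in 1.55% of all 32851 sequences of that length. Its core TGACG, which every full element also holds, was in 8 of the 57 (14.0%), against 17.8% of all. Among the 4 sequences printed it occurred in that of Col7a1, 1 time. GC boxes were in 50.9% of the members' sequences and in 32.7% of all, CCAAT boxes in 29.8% and 33.8%, and TATAAA in 7.02% and 12.4%. The 57 sequences belong to 51 of the 72 tested members. In the sequences printed, Col13a1 held the TATAAA and Col6a2 held 3 GC boxes, 2 of which overlap. G and C made up 75.6% of the Col16a1 sequence and 56.4% of that of Col7a1, against a median of 52.4% over all. A match is a description of the letters, not evidence of a bound site.

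Among the 39 tested collagens, 2 passed, or 5.13%, both negative (1.17% of all genes passed with a negative ratio). The median of the collagens' log2 ratios was -0.099, against -0.011 for all genes, and 15 of the 39 were positive, or 38.5%, against 47.8% of all genes. At an unadjusted p under 0.05, 7 collagens were negative (17.9%, against 9.58% of all genes) and 1 was positive (2.56%, against 8.85%). The median of the collagens was negative on each array, from -0.021 on array 1 to -0.15 on array 5, with 20 of the 39 placed on array 2. The median of all genes was also negative on every array but array 3, from -0.038 on array 2 to 0.021 on array 3.

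Col7a1 encodes the chain of collagen VII, which forms the anchoring fibrils that tie epithelial basement membranes to the tissue beneath. Its log2 ratios on arrays 1 to 6 were -0.88, -0.24, -0.39, -0.74, -0.47 and -0.61. All 6 were negative, array 1 lowest and array 2 highest, and the ranges of the 2 orientations overlapped. The fitted mean was -0.56 ± 0.12 (SE, n = 6 arrays), with an adjusted p of 0.034 in limma. With 1 array left out at a time, the adjusted p lay between 0.036 and 0.12, and it passed only without array 2.

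Col16a1 encodes collagen XVI, a chain with an interrupted helix that joins fibrils and other matrix assemblies. Its values on arrays 1 to 6 were -0.97, -0.63, -0.55, -0.096, -0.26 and -0.80. All 6 arrays were negative, with arrays 4 and 5 nearest to 0. The fitted log2 ratio was -0.55 ± 0.12 (SE, n = 6 arrays), at an adjusted p of 0.046 in limma. Without any 1 of the arrays it did not pass, with adjusted p from 0.063 to 0.17. The call also ended without the dye term (adjusted p 0.054), with arrays scaled to one spread (0.060) and where a placed value needed a posterior probability of only 0.8 in place of 0.95 (0.052).

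The most negative member was Col13a1, a transmembrane collagen of cell-matrix contacts. It was measured on 5 arrays, at -1.23, -0.81, -2.07, -0.78 and -0.35 on arrays 1, 3, 4, 5 and 6. All 5 were negative, and array 4 lay well below the rest. The fitted log2 ratio was -1.04 ± 0.23 (SE, n = 5 arrays), with an adjusted p of 0.051 in limma, short of the threshold. Without array 2, where it had no placed value and which changes only the other genes of the fit, the adjusted p was 0.045. It was 0.0497 without array 4, at a log2 ratio of -0.79, and 0.038 without array 6. It did not pass without array 1 (0.22), array 3 (0.094) or array 5 (0.12). The other 3 transmembrane collagens on the array had fitted values between -0.20 and 0.18, and none passed. Of these, Col23a1 was at 0.18 ± 0.11 (SE, n = 6 arrays), positive on 5 arrays.

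The multiplexins, Col15a1 and Col18a1, are basement membrane collagens that carry sugar chains, and a fragment of Col18a1 is the angiogenesis inhibitor endostatin. Col15a1 was at -0.31, 0.14, -1.02, -0.83 and -0.70 on arrays 1, 3, 4, 5 and 6. All 3 arrays with the agonist pool in channel 2 lay below both arrays of the other orientation. The mean was -0.085 over the arrays with the agonist in channel 1 and -0.85 over the others, and the fitted value was -0.47 ± 0.13 (SE, n = 5 arrays, adjusted p 0.091 in limma). The dye term, which tests the difference between orientations, had an unadjusted p of 0.015 and an adjusted p of 0.41 in limma for this gene. Col18a1 had a fitted log2 ratio of -0.0061 ± 0.19 (SE, n = 4 arrays), with 2 arrays on either side of 0.

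Collagen VI is a beaded filament built from the chains of Col6a1, Col6a2 and another chain such as that of Col6a3. Col6a2 was the most positive member in the fit of all arrays, at 0.066, 1.01, 1.46, 0.54 and 1.03 on arrays 1, 3, 4, 5 and 6. All 5 were positive, and array 1 was near 0. The fitted log2 ratio was 0.77 ± 0.18 (SE, n = 5 arrays), a fold of 1.71, with an adjusted p of 0.064 in limma, so it did not pass. Its value was 0.54 without array 3 and 0.66 where the placement did not keep the value of array 4, both below that of Lamc1 in the same fits (0.76 and 0.67). Col6a1, by contrast, was at -0.26, 0.064, 0.050, -0.21 and -0.045 on the same arrays, and its fitted value was -0.083 ± 0.12 (SE). Col6a3 was at 0.049 ± 0.12 (SE, n = 6 arrays) and Col6a4 at -0.23 ± 0.14 (SE, n = 6 arrays). Within arrays, Col6a2 exceeded Col6a1 by 0.90 ± 0.40 (SD, n = 5 arrays), on 5 of 5 arrays. The exact two-sided sign-flip test gave p = 0.0625, the smallest that 5 arrays allow, and 0.21 after adjustment over 10 pairs of partner chains. These pairs were chosen after their values had been seen, and none of them had an adjusted p under 0.21.

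The fibrillar collagens are the bulk of the matrix fibres, and 0 of their 11 chains passed in limma, with 1 of 11 at an unadjusted p under 0.05 (3.05% and 18.4% of all genes). Their fitted log2 ratios ran from -0.29 to 0.28. Col1a1 and Col1a2 encode the 2 chains of collagen I. Col1a1 was at 0.036, 0.023, 0.59 and 0.015 on arrays 1, 3, 5 and 6, with array 5 far above the others. Its fitted value was 0.17 ± 0.15 (SE, n = 4 arrays; 95% interval -0.18 to 0.51), and 0.022 without array 5. Col1a2 was negative on all 5 arrays that measured it, at -0.27, -0.15, -0.35, -0.22 and -0.37 on arrays 1, 3, 4, 5 and 6. Its fitted value was -0.26 ± 0.11 (SE; 95% interval -0.52 to -0.003), with an adjusted p of 0.26 in limma. Col1a1 exceeded Col1a2 on 4 of 4 shared arrays, by 0.42 ± 0.28 (SD), and 4 arrays cannot give an exact two-sided p below 0.125.

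Col3a1, the chain of collagen III that accompanies collagen I in soft tissue, was at 0.050 ± 0.10 (SE, n = 6 arrays; 95% interval -0.19 to 0.28). It was positive on arrays 1, 2 and 3 (0.46, 0.16 and 0.30), and near 0 or negative on arrays 4, 5 and 6 (0.018, -0.38 and -0.27). The dye term for Col3a1 had an unadjusted p of 0.035 and an adjusted p of 0.45 in limma. Col2a1, the fibril collagen of cartilage, was at 0.28 ± 0.13 (SE, n = 5 arrays), positive on 4 of 5 arrays, with an adjusted p of 0.29 in limma.

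Collagen IV forms the sheet of the basement membrane, and its 6 genes lie head to head in pairs. In RefSeq the starts of Col4a1 and Col4a2 are 21 bases apart and those of Col4a5 and Col4a6 1343 bases apart. Col4a1 and Col4a2 make the common form of the protein. Col4a1 was at 0.16, -0.60, -0.47 and -0.071 on arrays 1, 3, 5 and 6, and its fitted value was -0.24 ± 0.17 (SE; 95% interval -0.64 to 0.15). Col4a2 lay between -0.12 and 0.29 on 6 arrays, at 0.042 ± 0.10 (SE; 95% interval -0.19 to 0.27). The difference between these neighbours, Col4a1 minus Col4a2, was -0.36 ± 0.45 (SD, n = 4 arrays), with Col4a1 higher on 2 arrays, so it was within the spread between arrays.

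The other collagen IV genes, which serve specialised membranes such as that of the kidney filter, were also spread around 0. Fitted log2 ratios were -0.17 ± 0.19 (SE, n = 5) for Col4a3, 0.067 ± 0.13 (SE, n = 5) for Col4a4, -0.18 ± 0.10 (SE, n = 6) for Col4a5 and 0.063 ± 0.13 (SE, n = 6) for Col4a6, where n counts arrays. Col4a5 was negative on 5 of 6 arrays. Of the 7 tested network collagens 0 passed in limma, and 1 had an unadjusted p under 0.05, against 3.05% and 18.4% of all genes. Col10a1, the network collagen of growing cartilage, had no placed value on arrays 2 and 3 and was not tested. It was at 0.35, 0.66, 0.39 and 0.17 on arrays 1, 4, 5 and 6, all positive.

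The collagens with interrupted helices decorate fibrils, and Col16a1 was the only one of the 9 that passed, against 3.05% of all genes. Col22a1, known from tissue junctions such as that of muscle and tendon, had the most positive value of them, 0.34 ± 0.16 (SE, n = 5 arrays). On array 4 it was at 1.17, and on the others between -0.084 and 0.47. Col14a1, which binds to collagen I fibrils, has 2 probes with opposite means, -0.23 ± 0.36 and 0.20 ± 0.50 (SD, n = 4 arrays each). Its fitted value of 0.054 ± 0.17 (SE, n = 5 arrays) therefore averages probes that differ in sign.

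**Figure D2:**
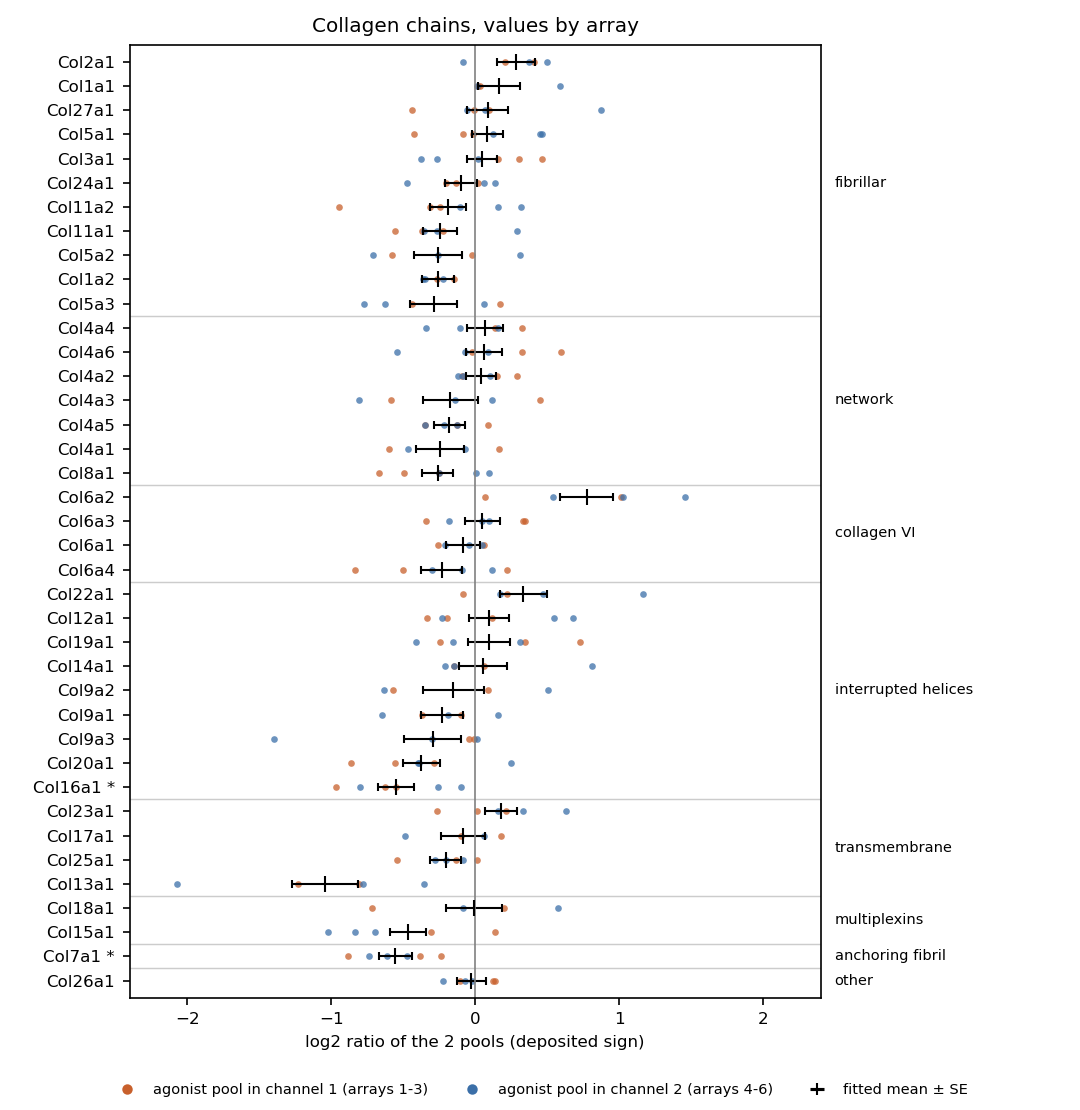
Log2 ratio of the 2 pools (horizontal axis, deposited sign) on each array for the 39 tested collagens, ordered within classes by fitted value. Orange points are arrays with the agonist pool in channel 1, blue points those with it in channel 2, black marks the fitted mean ± SE, and a star marks the genes that passed in limma, Col7a1 and Col16a1.

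Of the 10 laminin chains 1 passed, against 3.05% of all genes. Lamc1 encodes the gamma1 chain, a part of most laminins. It was positive on all 6 arrays, at 0.84, 1.51, 0.63, 0.23, 0.67 and 0.14 on arrays 1 to 6. Array 2 was highest and array 6 lowest, and the orientations overlapped: array 5 lay above array 3. The fitted log2 ratio was 0.67 ± 0.14 (SE, n = 6 arrays), with an adjusted p of 0.033 in limma. It was 0.54 at an adjusted p of 0.061 without array 2, and with each array left out in turn it passed only without array 3. The mean was 0.99 over the arrays with the agonist in channel 1 and 0.35 over the others. The dye term had an unadjusted p of 0.042 and an adjusted p of 0.46.

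The gamma1 chain is built into laminins together with a beta chain, and neither common beta chain passed in limma. Lamb1 was at 0.14 ± 0.15 (SE, n = 4 arrays; 95% interval -0.21 to 0.48). Lamb2 was at 0.083 ± 0.12 (SE, n = 5 arrays; 95% interval -0.18 to 0.35). The interval of Lamc1, 0.36 to 0.98, overlapped that of Lamb1. Lamc1 exceeded Lamb2 on 5 of 5 shared arrays, by 0.46 ± 0.19 (SD), and Lamb1 on 3 of 4 arrays, by 0.43 ± 0.43 (SD). The exact two-sided sign-flip p was 0.0625 for the first, the smallest 5 arrays allow, and 0.25 for the second. After adjustment over the 10 pairs these were 0.21 and 0.36, and both pairs were chosen after their values had been seen. Lamb2 was positive on both arrays with the agonist pool in channel 1 (0.27 and 0.31) and negative on the 3 of the other orientation (-0.0095, -0.041 and -0.31).

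The alpha chain sets which laminin is formed and binds the receptor. Lama5, the alpha chain of many adult basement membranes, had the most negative value of the laminins. It was at -0.085, -0.78, -1.64, -0.066 and -1.48 on arrays 1, 3, 4, 5 and 6. All were negative, but arrays 1 and 5 were near 0 while arrays 4 and 6 were far lower. The fitted log2 ratio was -0.75 ± 0.23 (SE, n = 5 arrays), with an adjusted p of 0.13 in limma. It passed without array 5 (adjusted p 0.041) and not without any other array (0.12 to 0.35), and it was at -0.57 without array 3. Lama4, the alpha chain found around fat cells and capillaries, was at -0.023 ± 0.11 (SE, n = 5 arrays; 95% interval -0.28 to 0.23). It was negative on both arrays with the agonist pool in channel 1 (-0.15 and -0.18) and positive on the 3 others (0.16, 0.070 and 0.11).

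The other laminin chains had fitted log2 ratios within their spread of 0. Lama1, an embryonic alpha chain, was at 0.11 ± 0.14 (SE, n = 6 arrays), Lama2, that of muscle and nerve, at -0.19 ± 0.14 (SE, n = 6 arrays), and Lama3, that of skin, at -0.14 ± 0.11 (SE, n = 6 arrays). Lamb3, the partner of Lama3 in skin, was at -0.0026 ± 0.14 (SE, n = 5 arrays) and Lamc3 at 0.31 ± 0.16 (SE, n = 4 arrays). None passed in limma. The median over the laminins was 0.040, with 5 chains positive and 5 negative.

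Of the 23 integrins 0 passed in limma, against 3.05% of all genes, and 4 had an unadjusted p under 0.05 (17.4%, against 18.4% of all genes). Their fitted values ran from -0.39 to 0.50, with a median of 0.059, and 15 were positive (65.2%, against 47.8% of all genes). The median was 0.0066 without array 1 and 0.11 without array 4. Itgb1, the beta subunit shared by most matrix receptors, was at 0.34, 0.087, -0.30, 0.13, -0.065 and -0.00087 on arrays 1 to 6. Its fitted value was 0.032 ± 0.11 (SE, n = 6 arrays; 95% interval -0.22 to 0.28), as the mean of 2 probes that had means of 0.046 ± 0.44 (SD, n = 4 arrays) and -0.0016 ± 0.17 (SD, n = 6 arrays).

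The 4 subunits that bind laminin held the most positive and the most negative integrin in the fit of all arrays. Itga7, the laminin receptor of skeletal and smooth muscle, was at 0.37, 0.39, 1.46, 0.24 and 0.18 on arrays 1, 3, 4, 5 and 6. All 5 were positive, and array 4 stood far above the rest. The fitted log2 ratio was 0.50 ± 0.19 (SE, n = 5 arrays), with an adjusted p of 0.215 in limma, and 0.295 without array 4. Itga7 exceeded its partner Itgb1 on 5 of 5 arrays, by 0.51 ± 0.52 (SD). That pair, too, was chosen after its values had been seen, and 5 arrays cannot give an exact p below 0.0625. Itga3, a receptor for epithelial laminins, was at -0.88 (array 1), -0.22 (array 3), -0.65 (array 4), -0.055 (array 5) and 0.015 (array 6). Its fitted value of -0.39 ± 0.16 (SE) had an adjusted p of 0.23.

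Itga6 and Itgb4 together form the receptor of hemidesmosomes, the plaques that fasten epithelia to their basement membrane. Itga6 was at 0.73, 0.65 and 0.29 on arrays 1, 2 and 3 and between -0.10 and 0.063 on arrays 4, 5 and 6. Itgb4 was at 0.47, -0.088 and -0.24 on arrays 1, 2 and 3 and at 0.53, 0.65 and 0.30 on arrays 4, 5 and 6. Their fitted values, 0.28 ± 0.10 and 0.27 ± 0.12 (SE, n = 6 arrays each), had adjusted p of 0.19 and 0.27 in limma. Their difference within arrays was 0.014 ± 0.58 (SD, n = 6 arrays), with Itga6 higher on 3 of 6. Dye terms for Itga6 and Itgb4 had unadjusted p of 0.026 and 0.097 in limma, and adjusted p of 0.44 and 0.53.

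The integrins that bind the RGD motif of fibronectin and vitronectin lay between -0.22 and 0.13, and 0 of the 7 passed or had an unadjusted p under 0.05 in limma (3.05% and 18.4% of all genes). Itgb5, which pairs with the alphaV subunit on vitronectin, was at -0.22 ± 0.14 (SE, n = 5 arrays). Itga8, a receptor of nephronectin found on smooth muscle, was at -0.19 ± 0.16 (SE, n = 6 arrays) and at -0.014 without array 2, where it was at -0.965. Itgav, the alphaV subunit itself, was at 0.0095 ± 0.11 (SE, n = 5 arrays) as a mean of 3 probes that disagreed. 1 of them was negative on 4 of 4 arrays, at -0.45 ± 0.34 (SD). The others were positive on 5 of 5 and 4 of 4 arrays, at 0.245 ± 0.24 and 0.15 ± 0.090 (SD). The mean of Itgav near 0 therefore stands for probes of opposite sign, and which of them reports the transcript was not tested.

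The leukocyte integrins, which immune cells use to adhere and migrate, had positive fitted values in 6 of 7 cases, against 47.8% of all genes. Several of these signs were not shared by the arrays. Itga4 was positive on 3 of 6 arrays, Itgal and Itgb2 each on 2 of 4, and Itgae, the negative case, on 3 of 4. In limma 0 of the 7 leukocyte integrins passed and 1 had an unadjusted p under 0.05, against 3.05% and 18.4% of all genes. Itgb7, the beta subunit of lymphocyte homing receptors, was at -0.29, 0.23, 1.49, 0.77 and 0.37 on arrays 1, 3, 4, 5 and 6. The 3 arrays with the agonist pool in channel 2 lay above both others, and the fitted log2 ratio was 0.42 ± 0.18 (SE, n = 5 arrays), with an adjusted p of 0.25. It was 0.27 without array 4 and -0.029 on the arrays with the agonist in channel 1 alone. The dye term of Itgb7 had an unadjusted p of 0.032 and an adjusted p of 0.45 in limma. Markers of macrophages passed in 0 of 6 cases (2 at an unadjusted p under 0.05) and those of T and B lymphocytes in 0 of 7 (1 at that p). The shares of all genes were again 3.05% and 18.4%. The macrophage markers had a median of 0.043, with 3 positive and 3 negative. Those of lymphocytes had a median of -0.039, with 3 positive and 4 negative. Of the remaining subunits, Itga9, which binds tenascin and osteopontin, was at -0.26 ± 0.12 (SE, n = 6 arrays). Itgb2l had 2 probes of opposite mean, 0.13 ± 0.35 and -0.074 ± 0.18 (SD, n = 5 arrays each).

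**Figure D3:**
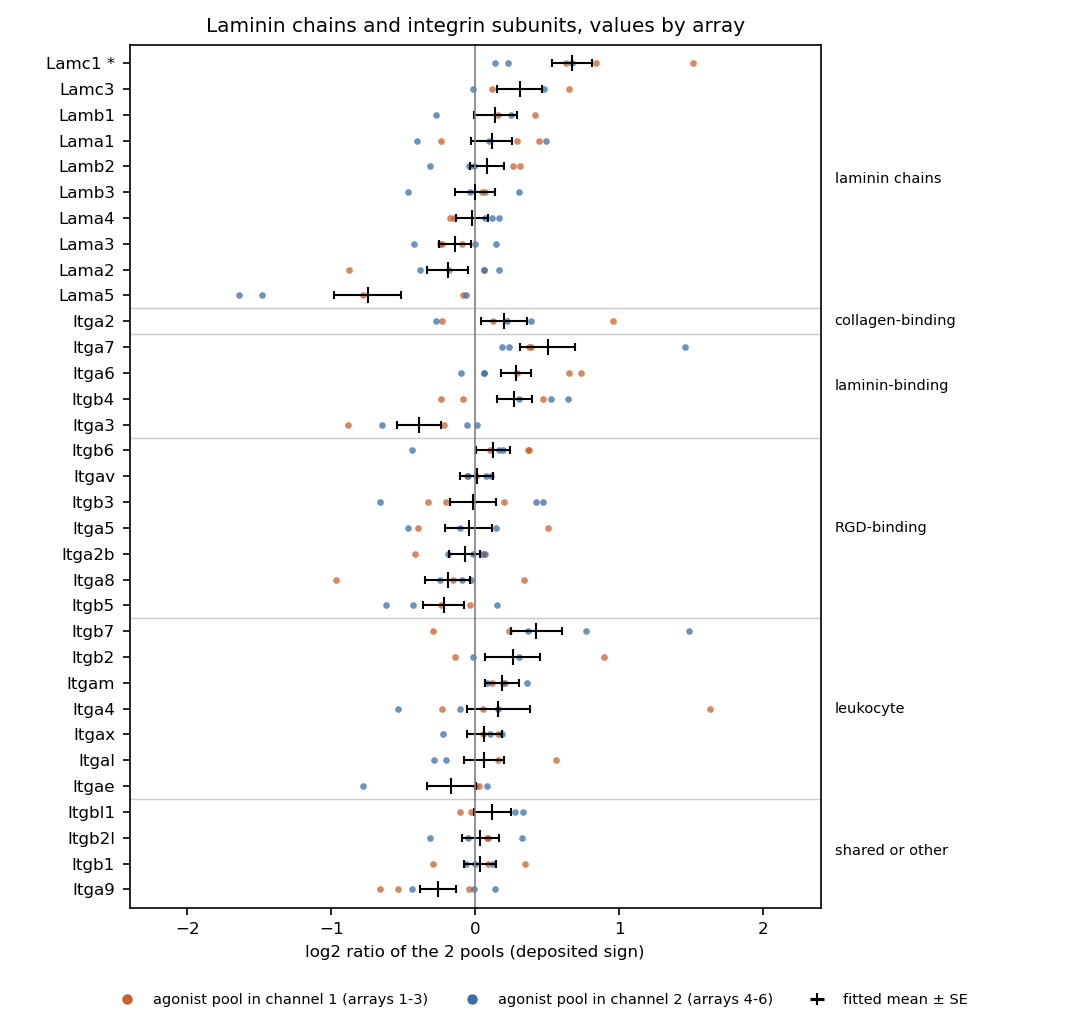
Log2 ratio of the 2 pools (horizontal axis, deposited sign) on each array for the 10 laminin chains and 23 integrin subunits, ordered within classes by fitted value. Orange points are arrays with the agonist pool in channel 1, blue points those with it in channel 2, black marks the fitted mean ± SE, and Lamc1, with the star, is the 1 gene that passed in limma.

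Ratios of the members were set side by side in the 2 orientations, since both measure the same pools with the dyes exchanged. In rank, members correlated at 0.30 on average between arrays of one orientation and at 0.21 between orientations, against 0.31 and 0.12 for all genes; the points of these correlations share the arrays and their normalisation. The dye term passed for 0 of 72 members in limma (0.00776% of all genes), and for 7 at an unadjusted p under 0.05 (9.72%, against 10.6%). The same sign on every array was held by 10 of 72 members (13.9%, against 14% of all genes): Col1a1, Col1a2, Col6a2, Col7a1, Col13a1, Col16a1, Lama5, Lamc1, Itga7 and Itgam. Itgam, the alpha subunit of a receptor of myeloid cells, is named here for that pattern alone, after its values were seen; it was at 0.186 ± 0.12 (SE, n = 5 arrays).

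**Figure D4:**
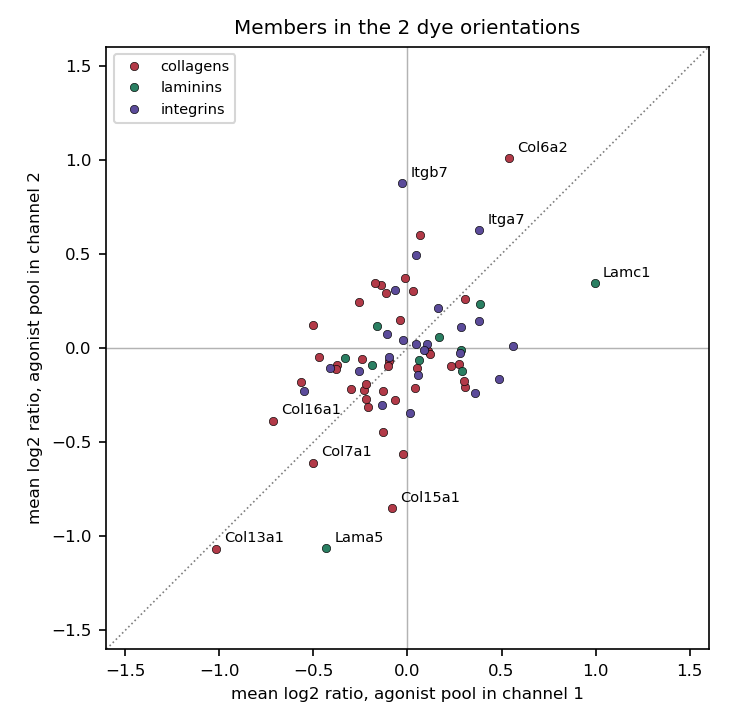
Mean log2 ratio of each tested member over the arrays with the agonist pool in channel 1 (horizontal axis) and in channel 2 (vertical axis), with the dotted line marking equal values. Col13a1, Col7a1 and Col16a1 lie in the lower left and Lamc1, Col6a2 and Itga7 in the upper right, while most members scatter around 0.

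How far a fit of the placed values rests on 1 array was read from fits with each array left out. The array was dropped after the placement, and the values placed with all arrays were kept. The array left out had still shaped the placement of the others, so these fits cannot show that a call is independent of it. Across these fits 0 to 2 members passed. Lamc1 had log2 ratios of 0.54 to 0.76, Col7a1 of -0.62 to -0.46 and Col16a1 of -0.62 to -0.45, while the adjusted p crossed the threshold. Since these fits share most of their values, similar sizes are built in. Means with the agonist in channel 1 and in channel 2 were 0.99 and 0.35 for Lamc1. They were -0.50 and -0.61 for Col7a1, and -0.72 and -0.39 for Col16a1. Col13a1 lay between -1.22 and -0.79 and Col6a2 between 0.54 and 1.01. Without array 1 no member passed (9 had an unadjusted p under 0.05 in limma), and 162 of all genes passed in place of 393.

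**Figure D5:**
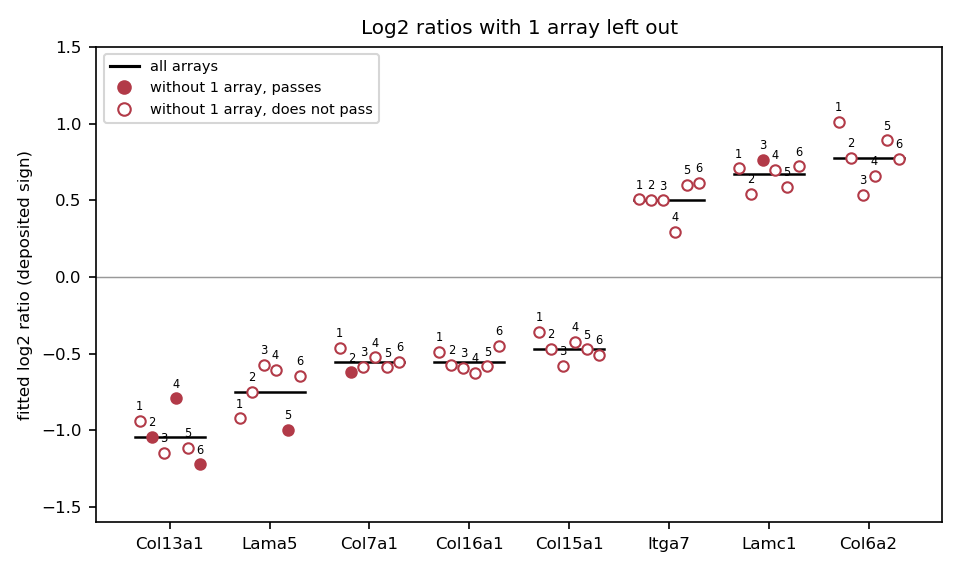
Fitted log2 ratio (vertical axis, deposited sign) of 8 members with each array left out, the number over a point naming that array; the black line is the fit of all arrays. Filled points passed in limma: Col13a1 without arrays 2, 4 and 6, Lama5 without array 5, Col7a1 without array 2 and Lamc1 without array 3.

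The enzymes and chaperones that fold, trim and crosslink collagen were read beside the chains. Of the 21 tested genes of that list, 0 passed in limma and 4 had an unadjusted p under 0.05 (3.05% and 18.4% of all genes). Their median was -0.028, with values between -0.41 and 0.29. Of 34 tested genes of other matrix components, 2 passed, where 3.05% of all genes did. Sparcl1, which encodes a matricellular protein related to SPARC, was negative on 6 of 6 arrays, from -0.99 to -0.50, at -0.68 ± 0.11 (SE, adjusted p 0.010 in limma). Thbs1, the gene of thrombospondin, was at 0.65, 0.80, 0.58 and 0.88 on arrays 1, 3, 5 and 6, and at 0.73 ± 0.14 (SE, n = 4 arrays, adjusted p 0.034 in limma).

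Of 37 tested genes of adhesion complexes, which hold integrins to the cytoskeleton, 2 passed, both positive (3.05% of all genes passed, 1.88% with a positive ratio). Sdc4, a syndecan that acts with integrins in focal adhesions, was at 1.92, 1.19, 1.94, 1.88 and 1.03 on arrays 1, 3, 4, 5 and 6. All 5 were above 1, higher than any member's fitted value, and the mean was 1.58 ± 0.18 (SE, adjusted p 0.0028 in limma). Actn4, an actin crosslinker, was positive on 6 of 6 arrays, from 0.19 to 1.25, at 0.60 ± 0.11 (SE, adjusted p 0.019 in limma). The median of this list was 0.020.

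Markers of other cells moved between the pools as well. Genes of smooth muscle had a median of 0.70, with medians of 0.48 to 0.62 on the single arrays, and 3 of 5 passed in limma: Acta2 (0.70), Cnn1 (1.26) and Des (0.90). Tagln (0.34) and Myh11 (0.063, positive on 3 arrays and negative on 3) did not pass. A list of genes of seminal vesicle and epididymis, organs that lie against this depot, had 5 tested genes: Svs2, Svs4, Svs5, Svs6 and Pate4. All 5 were negative and passed, with a median of -2.73. Medians of these 5 genes on single arrays ran from -4.16 on array 2 to -1.75 on array 6. The epididymal genes of that list, Crisp1 and Lcn5, were not tested. Cldn5 (0.75) was the 1 of 6 endothelial markers that passed, and the median of those markers was -0.034. Adipocyte markers passed in 0 of 10 cases (5 at an unadjusted p under 0.05 in limma, median 0.21), and fibroblast markers in 0 of 8 (1 at that p, median 0.059). Platelet and red cell markers passed in 0 of 3 (2 at that p, median 0.33). Over all genes, 3.05% passed and 18.4% had an unadjusted p under 0.05. Smooth muscle markers were positive and seminal vesicle genes negative, so any member shares a sign with 1 of these sets, and that match is not informative. The part of those cells in the members' ratios was not tested.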

How the data were processed

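RNA of 6 mice per treatment was pooled by the authors, labelled with Cy3 or Cy5 through tyramide signal amplification, hybridised, scanned and quantified with QuantArray, per the labels' protocols. The deposited values are log ratios, taken here as log2; the authors applied a uniform scale factor and LOWESS in their own program, per the labels. The sources used here name neither the numerator nor the log base, the background correction or the filter on spots. The number of arrays limits the precision for these 2 pools. With 1 pool per treatment, more arrays would not measure the spread between mice.

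Rows did not correspond between arrays, which the fixed design had not foreseen. Each column was placed on probe numbers with a hidden Markov model that lets spots drop out of a column but not enter it (normal scores limited to 3, 3 rounds, a further lost spot with probability 0.5), and a value was kept at a posterior of at least 0.95. Names were taken from the annotation of the platform, where 14717 of 19200 probes are listed, 6 of them with several symbols and not named. Spot patterns repeated between blocks of the array correlated at a median of 0.30 at this numbering, and at 0.20 and 0.21 at shifts of -1 and 1. Ratios of 1218 pairs of probes of one gene correlated at 0.12 at this numbering and between -0.053 and 0.058 at 12 shifted ones, so the name of a single probe may be mistaken.

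Values of a gene's probes were averaged. limma 3.58.1 (R 4.3.3, lmFit and eBayes) was fitted to all genes with at least 2 arrays per orientation, with the orientation as a term, and p-values were adjusted by Benjamini-Hochberg over all 12888 genes. Python 3.11.15 and numba 0.67.0 ran the placement. Placement and fit were tested on simulated data. The simulated columns took their correlations and lost spots from the placement itself, so that test cannot show that the real columns were placed rightly. Samples were grouped by the channel of the agonist pool, and 0 columns were left out.

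The members and all gene lists were chosen with earlier results of these data known. Named members are those that passed, the 4 most positive and the 4 most negative of each family, the chains of collagens I, III, IV and VI, all laminins, Itgb1 and genes whose probes differ in sign; of the other lists, the genes that passed. Col10a1, Col18a1 and Itgam lie outside this rule and were added after their values were seen. Alternatives left out single arrays, the placement, the dye term or 1 orientation, or changed the posterior, scale, weights, extreme values, probes per gene and minimum of arrays.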

Additional observations from a re-analysis of the deposited data

Results flagged for a closer look

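On array 4, Col14a1 was at 0.81 while the nearest other array was at 0.064, a gap of 0.73 of the range over 5 arrays. The values come from different probes of Col14a1: that of array 4 from 1 probe, which was at 0.36 on array 5, and that of array 3 from the other. Col1a1 was at 0.59 on array 5, against 0.036 on the next of 4 arrays. Itga7 was at 1.46 on array 4, against 0.39 on the next of 5 arrays. Each of these 3 stood apart from the other arrays of its gene by Dixon's criterion, which flags about 1 group in 20 by chance; 42 named members were examined. Without the array in question, the fitted log2 ratios were -0.11 for Col14a1, 0.022 for Col1a1 and 0.295 for Itga7.

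Lama4 and Lamb2 had opposite signs in the 2 dye orientations on every array that measured them. The dye terms of the fit were 0.14 for Lama4 and -0.20 for Lamb2 on the log2 scale, with adjusted p of 0.66 and 0.55 in limma, so the difference did not pass the test.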

How the results depend on the processing

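Of the members, 3 passed with all arrays. Fits that left out 1 array or used 1 orientation alone kept the placement made with all arrays, so they do not test that placement. With 1 array left out at a time, 0 to 2 passed, 0 to 1 of them positive and 0 to 2 negative; without array 1 none did. On rows as deposited, without placement, 0 passed, 0 positive and 0 negative, and so did 0 of all genes. Rows do not correspond between arrays there, so a row can hold different probes on different arrays. The fitted value under the name of Lamc1 reversed there to -0.091, at an adjusted p of 0.96 in limma, and need not be of that gene. With array weights 5 passed, 4 of them negative (Col13a1 and Col15a1 added), and 678 of all genes. Without a dye term 0 positive members passed, and with arrays scaled to one spread 2 (Col6a2 added). Both settings and a posterior of 0.8 ended the call of Col16a1 (adjusted p 0.054, 0.060 and 0.052 in limma), and the first that of Lamc1 (0.065). The arrays with the agonist pool in channel 1 alone gave 0, 0 positive and 0 negative, and those with it in channel 2 alone gave 1 negative, Col15a1, and 1 positive, Col6a2, but none of the 3.

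Over all genes, 393 passed with all arrays, 162 without array 1, 208 without array 4, 131 without array 5, and 78 and 222 in channel 1 and channel 2 alone. Of other matrix components 0 (without array 5) to 2 passed with 1 array left out and 0 on rows as deposited. Of adhesion genes it was 1 (without array 1, 4 or 5) to 3, and 0 on rows as deposited. The collagen median of -0.099 lay between -0.13 and -0.035 with 1 array left out (-0.035 without array 3), at -0.022 on rows as deposited, -0.17 at a posterior of 0.8 and -0.15 with 1 probe per gene; its sign stayed negative in these. With 1 array left out, the laminin median crossed 0, from -0.0068 to 0.077, and the integrin median ran from 0.0066 to 0.11.

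Each log ratio already compares both pools within an array. No paired analysis was possible because arrays of the 2 orientations share no replicate number.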
